A study of Homo sapiens with 12 samples.

Results

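DNA replication genes were followed in a breast cancer cell line left untreated or given Paclitaxel. The group held 39 genes of replication licensing, the replication fork and nucleotide supply, taken as the identifiers of the count table that carry these symbols. Each of the 39 matched 1 identifier out of 63568, and all 39 were among the 25242 genes with enough counts to be tested.

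The cells were MDA-MB-231, a human triple negative breast cancer line that lacks estrogen and progesterone receptors and HER2 amplification. They carried a nuclear GFP introduced with a histone construct, had the genotype WT in the labels, and grew in droplets of Matrigel, a basement membrane gel, until collagenase and dispase released them for RNA extraction. Bulk RNA was sequenced from 12 samples in 6 conditions, 2 biological replicates each. C1 was untreated and taken on day 2, and C2 was untreated and taken on day 4. The other 8 samples received Paclitaxel at 0.0005, 0.005, 0.05 or 0.5 μM on day 2 and were taken on day 4. The day of dosing follows the labels, whereas the study's methods for its imaged cultures give a dosing day later than this RNA extraction, so the length of exposure rests on the labels alone. All conditions share the line and the gel, so the data concern 1 cell line in 1 kind of culture. Paclitaxel binds microtubules and arrests cells in mitosis.

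Replication begins when the origin recognition complex, CDC6 and CDT1 load the MCM2-7 helicase onto DNA, a step that geminin blocks outside its window. CDC45 and GINS then turn the loaded ring into an active helicase, and polymerases, a sliding clamp with its loader, and enzymes that join Okazaki fragments copy both strands. In proliferating cells much of this machinery is transcribed around the start of S phase under E2F factors, so its transcripts are widely read as a sign of cycling cells. In bulk RNA a smaller share of cells in S phase and less of a transcript in each cell cannot be told apart.

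Promoter sequences are shown for 6 members to let the E2F-type letters counted here be seen in place. Each was chosen for the largest change with drug among members of the same role with a match upstream of the start. The window ran from 250 bases before to 50 after the gene start in RefSeq on GRCh38.p14, and 35 members had an entry. The letters searched were TTTCCCGC, TTTGGCGC, TTTCGCGC and TTTGCCGC on both strands. A match was present in 17 of the 35 members (48.6%), in 10 of 43 other replication genes (23.3%) and in 908 of 27305 promoters overall (3.33%). The following stretches of 100 bases lie on the gene's own strand, 5′ to 3′, upstream of the start, with the matching letters in capitals. GCGGGAAA is TTTCCCGC read on the opposite strand, and in MCM6 the run TTTGGCGCGAAA holds a match on each strand that overlap.
GINS2: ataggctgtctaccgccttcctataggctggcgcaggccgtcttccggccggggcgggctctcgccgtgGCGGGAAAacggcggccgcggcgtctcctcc
POLA2: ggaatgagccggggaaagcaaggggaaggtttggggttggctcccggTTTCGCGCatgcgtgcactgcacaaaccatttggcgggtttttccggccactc
LIG1: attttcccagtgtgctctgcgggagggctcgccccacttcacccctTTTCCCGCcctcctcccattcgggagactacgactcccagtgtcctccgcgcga
MCM6: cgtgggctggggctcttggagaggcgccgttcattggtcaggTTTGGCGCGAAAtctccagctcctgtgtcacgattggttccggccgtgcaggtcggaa
TYMS: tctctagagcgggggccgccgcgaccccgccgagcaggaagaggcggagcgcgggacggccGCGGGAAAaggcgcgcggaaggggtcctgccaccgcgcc
CDT1: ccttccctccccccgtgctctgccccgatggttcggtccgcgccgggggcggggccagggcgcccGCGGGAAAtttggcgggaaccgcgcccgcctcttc
The stretches lie at chr16:85688955-85689054, minus strand (GINS2), chr11:65261862-65261961, plus strand (POLA2), chr19:48170405-48170504, minus strand (LIG1), chr2:135876476-135876575, minus strand (MCM6), chr18:657553-657652, plus strand (TYMS) and chr16:88803689-88803788, plus strand (CDT1). The 17 members with a match and the 18 without are compared after the expression results, and a match of letters is a description rather than evidence of a bound factor.

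Total counts per sample ran from 38380629 to 79169121. Levels are given as CPM, counts scaled by TMM to a common library size and expressed per 1e6 counts, and the members together took 0.182% to 0.375% of the counts of a sample. The line's defining transcripts were present, with VIM at a mean of 1057 CPM over the 12 samples, while ESR1 stood at 0.277 CPM, PGR at 0.0297 CPM and CDH1 at 0.104 CPM. KRT8 (417 CPM) and KRT19 (207 CPM), keratins listed as low in this line, were detected at high levels. The C1 samples stood apart. Over genes of at least 10 CPM the SD of the log2 difference between their replicates was 0.58, against 0.087 to 0.23 in the other 5 conditions, and C1 replicate 2 had the lowest total count and the highest mitochondrial share, 7.74%. The main values of the day comparison are therefore also given without each C1 sample.

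The summed level of the replication genes was lower at every dose of Paclitaxel than in the untreated culture of the same day. Summed over the 39 genes, C1 held 3788 ± 539.5 CPM, C2 2695 ± 39.6, and the doses from lowest to highest 1978 ± 125.2, 1721 ± 39.6, 1825 ± 141.4 and 1960 ± 160.5 (mean ± SD, n = 2 each). For 35 of the 39 genes all 8 treated samples lay below both C2 samples (11.3% of all tested genes did so), and the same 35 lay below all 4 untreated samples (5.74% of tested genes). The exceptions were ORC6, PRIM2, RFC2 and SLBP. No replication gene had all 8 treated samples above C2.

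**Figure D1:**
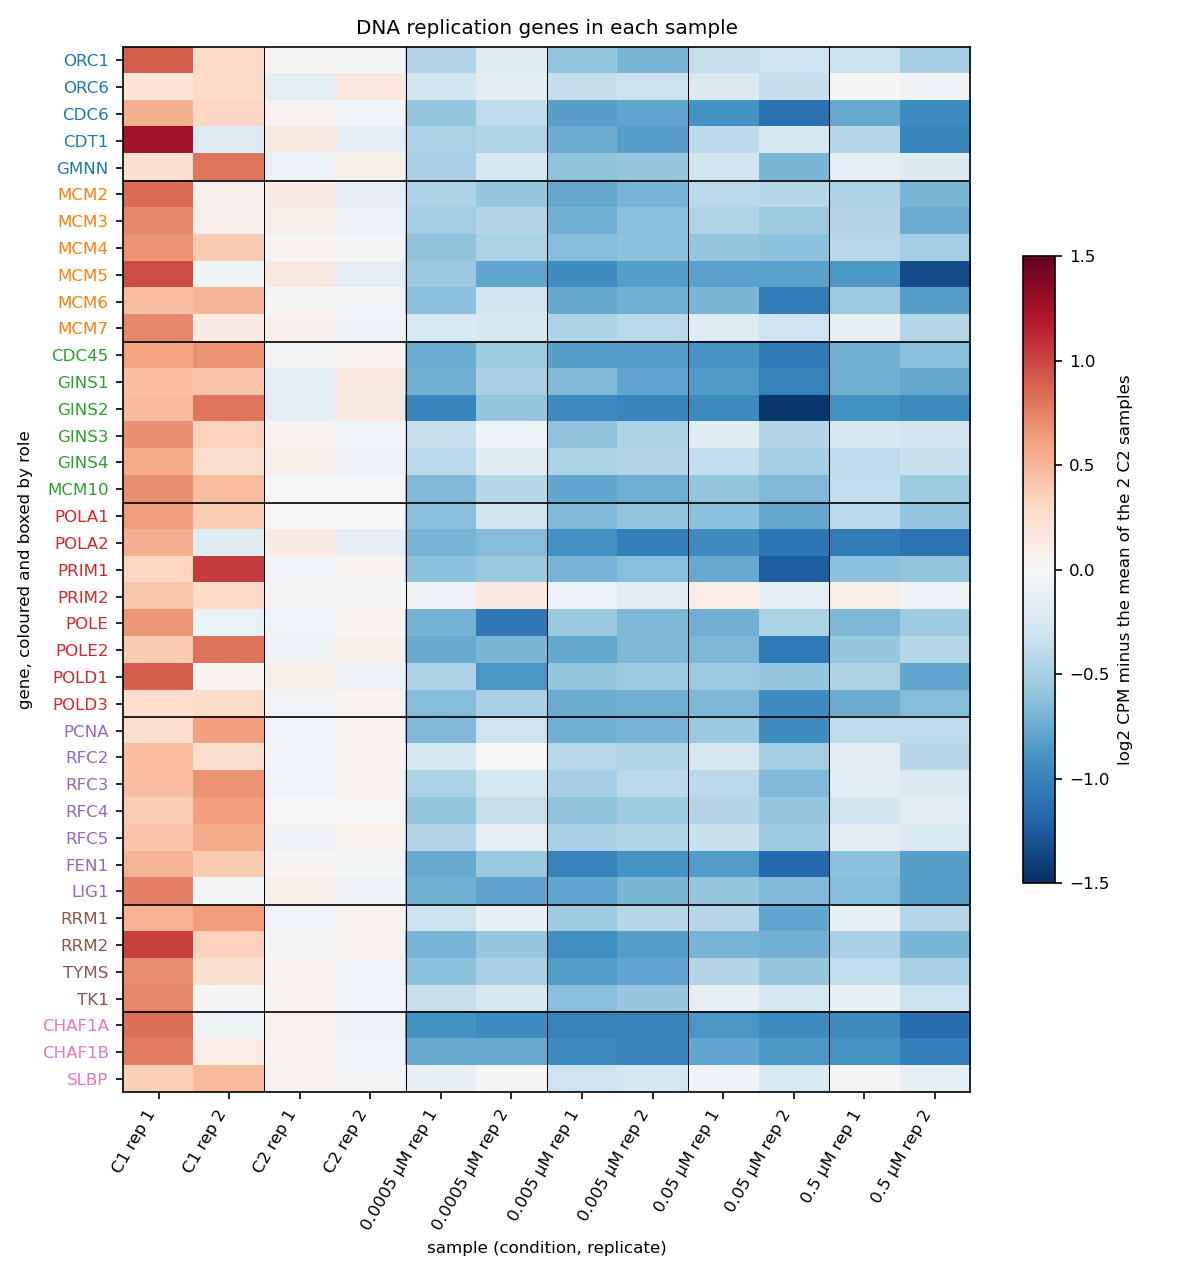
Log2 CPM of the 39 replication genes (vertical axis, coloured and boxed by role) in each of the 12 samples (horizontal axis), minus the mean of the 2 C2 samples. The C1 columns are mostly above C2 but differ between the 2 replicates, and for 35 genes every treated column is below both C2 columns.

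Treated cultures were compared with C2 by edgeR's quasi-likelihood test in a model of all 12 samples, with Benjamini-Hochberg adjustment over 25242 genes, and an adjusted p under 0.05 counted as a call. For single genes, changes with drug are log2 fold changes of the 4 doses averaged against C2, with the adjusted p of this test. For the mean of the 4 doses, 24 members fell and 0 rose, where 4.06% of tested genes were called lower and 5.64% higher. All 39 estimates were negative, from -0.97 (CHAF1A) to -0.02 (PRIM2), with a median log2 fold change of -0.57. Medians were 0.0009 over all tested genes and -0.098 over tested genes of at least 10 CPM, of which 7.07% were called lower. The count was 36 without both C1 samples (11.8% of tested genes called lower), without C1 replicate 1 (11.7%) and without C1 replicate 2 (11.1%). It was 5 without C2 replicate 1 (0.159%) and 8 without C2 replicate 2 (1.17%), while the median stayed between -0.62 and -0.53. Of the 24 calls 20 were lost without at least 1 of the C2 samples, 6 of them (MCM2, MCM3, MCM5, POLE, PCNA and RFC4) also without at least 1 treated sample, and 4 were lost in none of these fits.

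Markers of other cell types stood at low levels but moved with the treatment. Of the leukocyte list (6 of 6 genes matched) the summed level was 0.537 to 0.870 CPM in the 4 untreated samples and 1.31 to 1.80 CPM in the 8 treated ones, with CD14 as its main part. CD3E did not exceed 0.0300 CPM or LYZ 0.0850 CPM in any sample, and CD3E was at 0 in several. For the endothelial list (4 of 5 matched) the sums were 0.626 to 1.65 CPM untreated and 2.08 to 3.24 CPM treated, with KDR as the main part and CDH5 at 0.463 CPM or less. Fibroblast markers (8 of 8) overlapped more, at 9.33 to 17.1 CPM untreated and 13.1 to 21.8 CPM treated. Their part in the drug result was not tested.

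Dose by dose, 2 members fell at 0.0005 μM, where 0.479% of tested genes were called lower and 1.87% higher. At 0.005 μM 16 fell (0.769% lower, 2.51% higher), at 0.05 μM 19 fell (3.22% lower, 5.09% higher), and at 0.5 μM 11 fell (1.92% lower, 4.34% higher). No member rose at any dose, and 38, 39, 39 and 38 of the 39 estimates were lower from the lowest to the highest dose, with PRIM2 the exception (0.050 at 0.0005 μM and 0.0086 at 0.5 μM). CDC45 and FEN1 were the 2 that passed at the lowest dose. Median log2 fold changes were -0.48, -0.67, -0.59 and -0.50. Without both C1 samples the counts were 24, 36, 30 and 26, where 4.58%, 6.15%, 9.16% and 10.8% of tested genes were called lower, and they were the same without C1 replicate 1 or 2 except for 31 at 0.05 μM without C1 replicate 1. Without C2 replicate 1 they were 0, 0, 6 and 0 (0.0371%, 0.0185%, 0.208% and 0.0853% of tested genes), and without C2 replicate 2 they were 0, 1, 8 and 2 (0.123%, 0.235%, 1.13% and 0.663%). Leaving out replicate 1 or 2 of the dose itself gave 0 and 0 at 0.0005 μM (0.0378% and 0.0148% of tested genes called lower), 0 and 0 at 0.005 μM (0.0229% and 0.0189%), 10 and 3 at 0.05 μM (0.67% and 0.289%), and 1 and 0 at 0.5 μM (0.227% and 0.0748%). At 0.0005 μM the count was also 0 without any 1 sample of 0.005 or 0.5 μM (0.189% to 0.303%), and at 0.005 μM it was 10 without replicate 2 of 0.0005 μM (0.34%). The number called at a dose thus depended on single samples, as did the share of all tested genes, while the median stayed negative in each case.

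The order of the doses was not monotonic. The lowest of the 6 condition means was at 0.005 μM for 20 members (10.5% of tested genes had their lowest mean there), at 0.05 μM for 13 (18.1%), at 0.0005 μM for 3 and at 0.5 μM for 3. Fitted to the 8 treated samples, the slope on the log10 of dose called 0 members (2.04% of tested genes were called lower and 1.03% higher), with a median of -0.0012 log2 per 10-fold dose. DESeq2 also called 0 (4.38% of tested genes lower, 2.04% higher). By unadjusted p, 3 members passed 0.05 (9.89% of tested genes did so with a negative slope), all with lower values at higher dose: POLA2 (-0.13 log2 per 10-fold dose, SE 0.042, edgeR adjusted p = 0.111), CDC6 (-0.13, SE 0.046, adjusted p = 0.151) and MCM5 (-0.12, SE 0.047, adjusted p = 0.201). Between 0.5 and 0.0005 μM directly, 0 members were called by edgeR (0.337% of tested genes lower, 0.0753% higher) or by DESeq2 (1.54% lower, 0.808% higher). In edgeR 1 passed an unadjusted p of 0.05 where 6.01% of tested genes did so lower (CDC6, -0.36, SE 0.15, edgeR adjusted p = 0.280), and 24 estimates were lower and 15 higher.

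**Figure D2:**
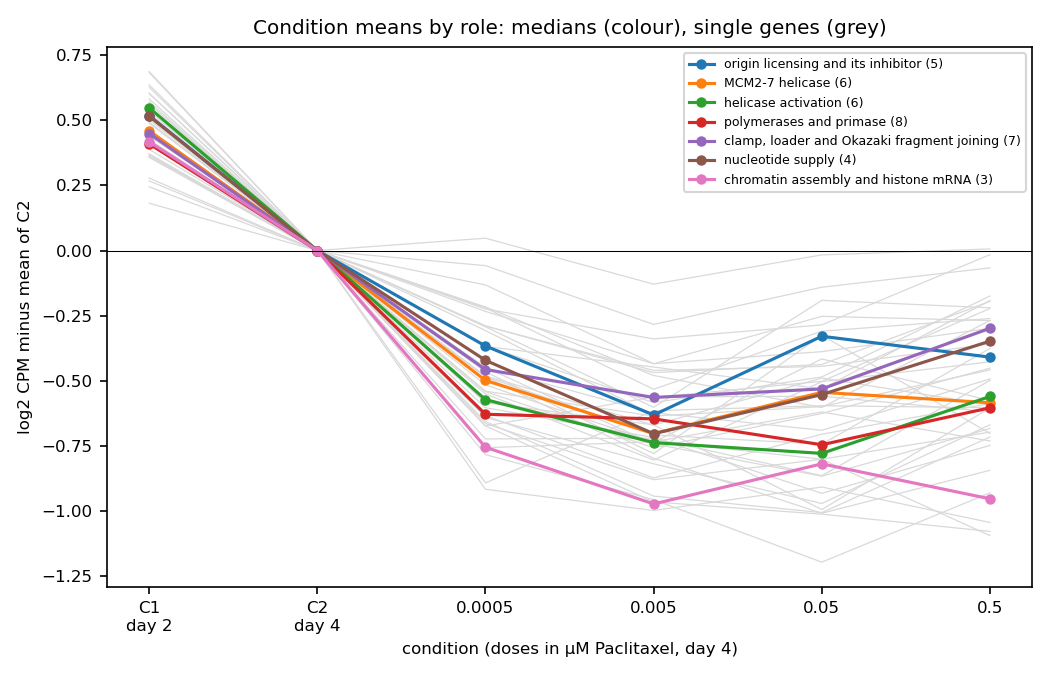
Condition means of the 39 genes as log2 CPM minus the mean of C2 (vertical axis) in C1, C2 and the 4 Paclitaxel doses in μM (horizontal axis), with single genes in grey and the median of each role group in colour. Every grey line is above 0 in C1, and the group medians lie below 0 at all doses without falling steadily from 0.0005 to 0.5 μM.

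Origin licensing was the group with the fewest calls. With the 4 doses averaged, 1 of its 5 genes fell (4.06% of tested genes called lower), and the group median was -0.42. CDC6 (ENSG00000094804, chr17:38444131.0-38460909.0, plus strand), the ATPase that helps load the MCM ring, was at 146 and 126 CPM in the C1 samples, 104 and 98.2 in the C2 samples, 67.3 and 77.2 at 0.0005 μM, 57.1 and 58.9 at 0.005 μM, 54.01 and 46.5 at 0.05 μM and 59.95 and 52.6 at 0.5 μM. Its 8 treated samples were all below both C2 samples, and the level at 0.05 and 0.5 μM was below that at 0.0005 μM in each sample (gene positions are on GRCh37). CDC6 fell by 0.78 on the log2 scale (SE 0.11, edgeR adjusted p = 0.00144), or by 41.9%, and was called at 0.005, 0.05 and 0.5 μM. The call for the mean of the 4 doses was lost without C2 replicate 1 (-0.74).

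ORC6 (ENSG00000091651, chr16:46723555.0-46732306.0, plus strand), the smallest subunit of the origin recognition complex, was at 51.01 and 53.9 CPM in the C1 samples, 39.9 and 49.03 in the C2 samples, 36.3 and 39.5 at 0.0005 μM, 34.5 and 35.4 at 0.005 μM, 38.01 and 34.6 at 0.05 μM and 44.9 and 42.6 at 0.5 μM. The samples at 0.5 μM lay between the 2 C2 samples, and the remaining treated samples lay below them. Its log2 fold change over the 4 doses was -0.22 (SE 0.11, adjusted p = 0.223). ORC1, the largest subunit, had -0.42 (adjusted p = 0.0910). CDT1, the loader of MCM, had -0.57 with an SE of 0.26 (adjusted p = 0.190), and its inhibitor GMNN, geminin, had -0.40 (adjusted p = 0.116).

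In the MCM2-7 ring itself 5 of 6 subunits fell with the 4 doses averaged (4.06% of tested genes called lower), with a group median of -0.56. MCM5 (ENSG00000100297, chr22:35796127.0-35821424.0, plus strand) was at 137 and 66.6 CPM in the C1 samples, 76.7 and 63.4 in the C2 samples, 47.6 and 40.7 at 0.0005 μM, 36.6 and 39.2 at 0.005 μM, 39.9 and 40.1 at 0.05 μM and 38.3 and 27.8 at 0.5 μM. The treated samples were all below C2, but C1 replicate 2 was at the level of C2 and far below C1 replicate 1. MCM5 fell by 0.86 (SE 0.20, adjusted p = 0.0210), or by 45.0%, and the call was lost without C2 replicate 1 (-0.72), without C2 replicate 2 (-1.002) and without replicate 2 of 0.0005 μM (-0.83).

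MCM7 (ENSG00000166508, chr7:99689856.0-99699563.0, minus strand) was the most abundant member in CPM and was at 466 and 308 CPM in the C1 samples, 295 and 269.9 in the C2 samples, 241 and 239 at 0.0005 μM, 205 and 212 at 0.005 μM, 247 and 227 at 0.05 μM and 261 and 209.8 at 0.5 μM. Every treated sample was below both C2 samples, with the first 0.5 μM sample close to them. The log2 fold change of MCM7 was -0.30 (SE 0.15, adjusted p = 0.227). It passed without C1 replicate 1 (-0.30), C1 replicate 2 (-0.29) or both (-0.29), and part of its exons overlaps AP4M1 on the opposite strand. MCM6 fell by 0.68 (adjusted p = 0.00642), MCM2 by 0.57 (adjusted p = 0.0442), MCM3 by 0.56 (adjusted p = 0.0353) and MCM4 by 0.56 (adjusted p = 0.00714). The calls of MCM2 and MCM3 were the least stable of the 24. Out of 21 settings of test, filter, scaling and samples with C2 as the control, MCM2 was called in 10 and MCM3 in 11, against 19 each for MCM4 and MCM6. MCM2 was lost without any 1 of the C2 or treated samples, with estimates from -0.69 to -0.44, and MCM3 was lost in all but 1 of those fits. The calls of MCM4 and MCM6 were lost without either C2 sample, as was that of MCM5.

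Among genes that activate the helicase 4 of 6 fell (4.06% of tested genes called lower), with a median of -0.68. GINS2 (ENSG00000131153, chr16:85709804.0-85723679.0, minus strand), a subunit of the GINS tetramer whose promoter stretch is shown above, was at 43.6 and 54.9 CPM in the C1 samples, 28.7 and 34.4 in the C2 samples, 15.98 and 20.8 at 0.0005 μM, 16.4 and 16 at 0.005 μM, 16.2 and 11.6 at 0.05 μM and 16.7 and 16.2 at 0.5 μM. Its highest treated sample was below its lowest C2 sample, and the second 0.05 μM sample was the lowest of all. GINS2 fell by 0.97 (SE 0.14, adjusted p = 0.00230), or by 48.8%. CDC45, which joins GINS and the MCM ring, fell by 0.78 (SE 0.10, adjusted p = 0.000956) and was called at each of the 4 doses.

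GINS3 (ENSG00000181938, chr16:58328984.0-58440051.0, plus strand) was at 29.1 and 23.1 CPM in the C1 samples, 18.6 and 17.6 in the C2 samples, 14.2 and 17.02 at 0.0005 μM, 11.9 and 13.1 at 0.005 μM, 15.98 and 13.4 at 0.05 μM and 15.3 and 14.9 at 0.5 μM. All treated samples were below C2, with the second sample at 0.0005 μM within 1 CPM of the lower C2 sample. Its log2 fold change was -0.33 (SE 0.13, adjusted p = 0.123), and it passed without C1 replicate 1 (-0.33), C1 replicate 2 (-0.32) or both (-0.32). GINS1 fell by 0.76 (adjusted p = 0.00212) and MCM10, a factor needed to start the helicase, by 0.59 (adjusted p = 0.00626). GINS4 had -0.39 (adjusted p = 0.0535), and antisense transcripts overlap 1276 bases of its exons.

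Polymerase and primase genes had 6 of 8 members called lower (4.06% of tested genes were) and a median of -0.69. POLA2 (ENSG00000014138, chr11:65029384.0-65073430.0, plus strand), the B subunit of DNA polymerase alpha, had the lowest level of all 39 genes in CPM and per length (0.887 CPM per kilobase of exon). It was at 21.8 and 13.2 CPM in the C1 samples, 16.2 and 13.7 in the C2 samples, 9.17 and 9.52 at 0.0005 μM, 7.97 and 7.29 at 0.005 μM, 7.74 and 7.04 at 0.05 μM and 7.19 and 6.903 at 0.5 μM. The 2 C2 samples lay within the range of C1, and every sample at 0.005 μM or more was below those at 0.0005 μM. POLA2 fell by 0.94 (SE 0.15, adjusted p = 0.00377), or by 47.9%, and the call was lost without C2 replicate 1 (-0.82).

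PRIM2 (ENSG00000146143, chr6:57179603.0-57513376.0, plus strand), the large primase subunit, was at 32.7 and 30.1 CPM in the C1 samples, 24.8 and 24.2 in the C2 samples, 23.7 and 27.03 at 0.0005 μM, 23.03 and 21.8 at 0.005 μM, 26.5 and 22.1 at 0.05 μM and 26.1 and 23.2 at 0.5 μM. Treated samples lay on both sides of C2. The log2 fold change of -0.02 (SE 0.11, adjusted p = 0.933, 95% interval -0.27 to 0.23) was the smallest of the 39. Its partner PRIM1, the catalytic primase subunit, fell by 0.71 (SE 0.16, adjusted p = 0.0197).

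Other polymerase subunits were called as well. POLE2, the second subunit of polymerase epsilon, fell by 0.70 (adjusted p = 0.00751), POLD3 by 0.70 (adjusted p = 0.00207), POLE, the catalytic subunit of epsilon, by 0.67 (adjusted p = 0.0253, called in 15 of 21 settings) and POLA1, that of alpha, by 0.56 (adjusted p = 0.0126). The small epsilon subunits POLE3 (-0.03, adjusted p = 0.883) and POLE4 (0.18, adjusted p = 0.478), which belong to the other replication genes and were looked up after values were seen, did not pass. POLD1, the catalytic subunit of polymerase delta, had -0.60 with an SE of 0.18 (adjusted p = 0.0595).

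For the clamp, its loader and Okazaki fragment joining, 4 of 7 fell (4.06% of tested genes called lower) and the median was -0.44. FEN1 (ENSG00000168496, chr11:61560383.0-61564710.0, plus strand), the flap endonuclease that trims Okazaki fragments, was at 191 and 175 CPM in the C1 samples, 135 and 133 in the C2 samples, 79.02 and 91.2 at 0.0005 μM, 66.9 and 72.3 at 0.005 μM, 74.6 and 59.4 at 0.05 μM and 87.1 and 76.1 at 0.5 μM. Treated and C2 samples were far apart, and the C2 pair differed by less than 3 CPM. FEN1 fell by 0.83 (SE 0.11, adjusted p = 0.00125), or by 43.6%, and was called at each dose. LIG1, the ligase that seals the fragments, fell by 0.71 (adjusted p = 0.0145), with 425 bases of exon shared with an opposite-strand gene.

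RFC2 (ENSG00000049541, chr7:73645829.0-73668788.0, minus strand), a small subunit of the clamp loader, was at 90.1 and 79.2 CPM in the C1 samples, 63.8 and 67.8 in the C2 samples, 54.7 and 65.8 at 0.0005 μM, 49.3 and 48 at 0.005 μM, 55.03 and 45.8 at 0.05 μM and 58.2 and 49.1 at 0.5 μM. The second sample at 0.0005 μM lay between the C2 samples. The log2 fold change was -0.31 (SE 0.12, adjusted p = 0.126), and it passed without C1 replicate 1 (-0.31), C1 replicate 2 (-0.30) or both (-0.30). An unnamed identifier carried counts within 1% of RFC2 in all 12 samples, so the level of RFC2 is uncertain. PCNA, the clamp and the most abundant member per length (92.3 CPM per kilobase), fell by 0.57 (adjusted p = 0.0207), and RFC4 fell by 0.44 (adjusted p = 0.0290, called in 12 of 21 settings). RFC3 had -0.38 (adjusted p = 0.0520) and RFC5 -0.35 (adjusted p = 0.0708).

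In nucleotide supply 2 of 4 genes fell (4.06% of tested genes called lower), with a median of -0.48. RRM2 (ENSG00000171848, chr2:10260825.0-10351851.0, plus strand), the ribonucleotide reductase subunit made in S phase, was at 313 and 195 CPM in the C1 samples, 151 and 157 in the C2 samples, 94.6 and 103 at 0.0005 μM, 80.9 and 86.8 at 0.005 μM, 94.8 and 93.5 at 0.05 μM and 109.6 and 95.2 at 0.5 μM. All treated samples were below C2, and C1 replicate 1 was far above every other sample. RRM2 fell by 0.70 (SE 0.14, adjusted p = 0.0114), or by 38.4%, with the call lost without either C2 sample (-0.73 and -0.68).

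TK1 (ENSG00000167900, chr17:76170172.0-76183314.0, minus strand), which phosphorylates salvaged thymidine, was at 169.9 and 104 CPM in the C1 samples, 106 and 99.9 in the C2 samples, 80.9 and 87.5 at 0.0005 μM, 66.3 and 69.5 at 0.005 μM, 95.04 and 85.8 at 0.05 μM and 95.2 and 82.3 at 0.5 μM. Treated samples were below C2 by a narrow margin at 0.05 and 0.5 μM. Its log2 fold change was -0.33 (SE 0.15, adjusted p = 0.199), and it passed without C1 replicate 1 (-0.33), C1 replicate 2 (-0.32) or both (-0.31). TYMS, the thymidylate synthase, fell by 0.57 (adjusted p = 0.0130), although 1160 bases of its exons overlap ENOSF1 and TYMSOS on the other strand. RRM1, the large reductase subunit, had -0.39 (adjusted p = 0.0718).

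Chromatin assembly gave the largest group median, -0.88, over 3 genes of which 2 fell (4.06% of tested genes called lower). CHAF1A (ENSG00000167670, chr19:4402637.0-4445015.0, plus strand), the large subunit of the chaperone that places histones behind the fork, was at 84.1 and 45.1 CPM in the C1 samples, 49.2 and 46.02 in the C2 samples, 25.5 and 24.9 at 0.0005 μM, 23.8 and 23.8 at 0.005 μM, 25.9 and 24.8 at 0.05 μM and 24.7 and 21.5 at 0.5 μM. The 8 treated samples spanned less than 5 CPM and lay far below C2. CHAF1A fell by 0.97 (SE 0.17, adjusted p = 0.00463), or by 48.9%, and the call was lost without C2 replicate 1 (-0.92). Its partner CHAF1B fell by 0.88 (SE 0.14, adjusted p = 0.00341).

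SLBP (ENSG00000163950, chr4:1694458.0-1714071.0, minus strand), which binds the stem-loop of replication-dependent histone mRNA, was at 89.3 and 97.2 CPM in the C1 samples, 71.4 and 68.03 in the C2 samples, 63.7 and 70.3 at 0.0005 μM, 56.01 and 58.5 at 0.005 μM, 67.01 and 59.6 at 0.05 μM and 70.5 and 62.8 at 0.5 μM. Treated and C2 samples overlapped. The log2 fold change was -0.14 (SE 0.10, adjusted p = 0.452). CDC45, GINS2, POLD3 and FEN1 were called in the mean of the 4 doses in 21 of 21 settings of test, filter, scaling and samples with C2 as the control, whereas ORC6, PRIM2 and SLBP were called in 0.

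**Figure D3:**
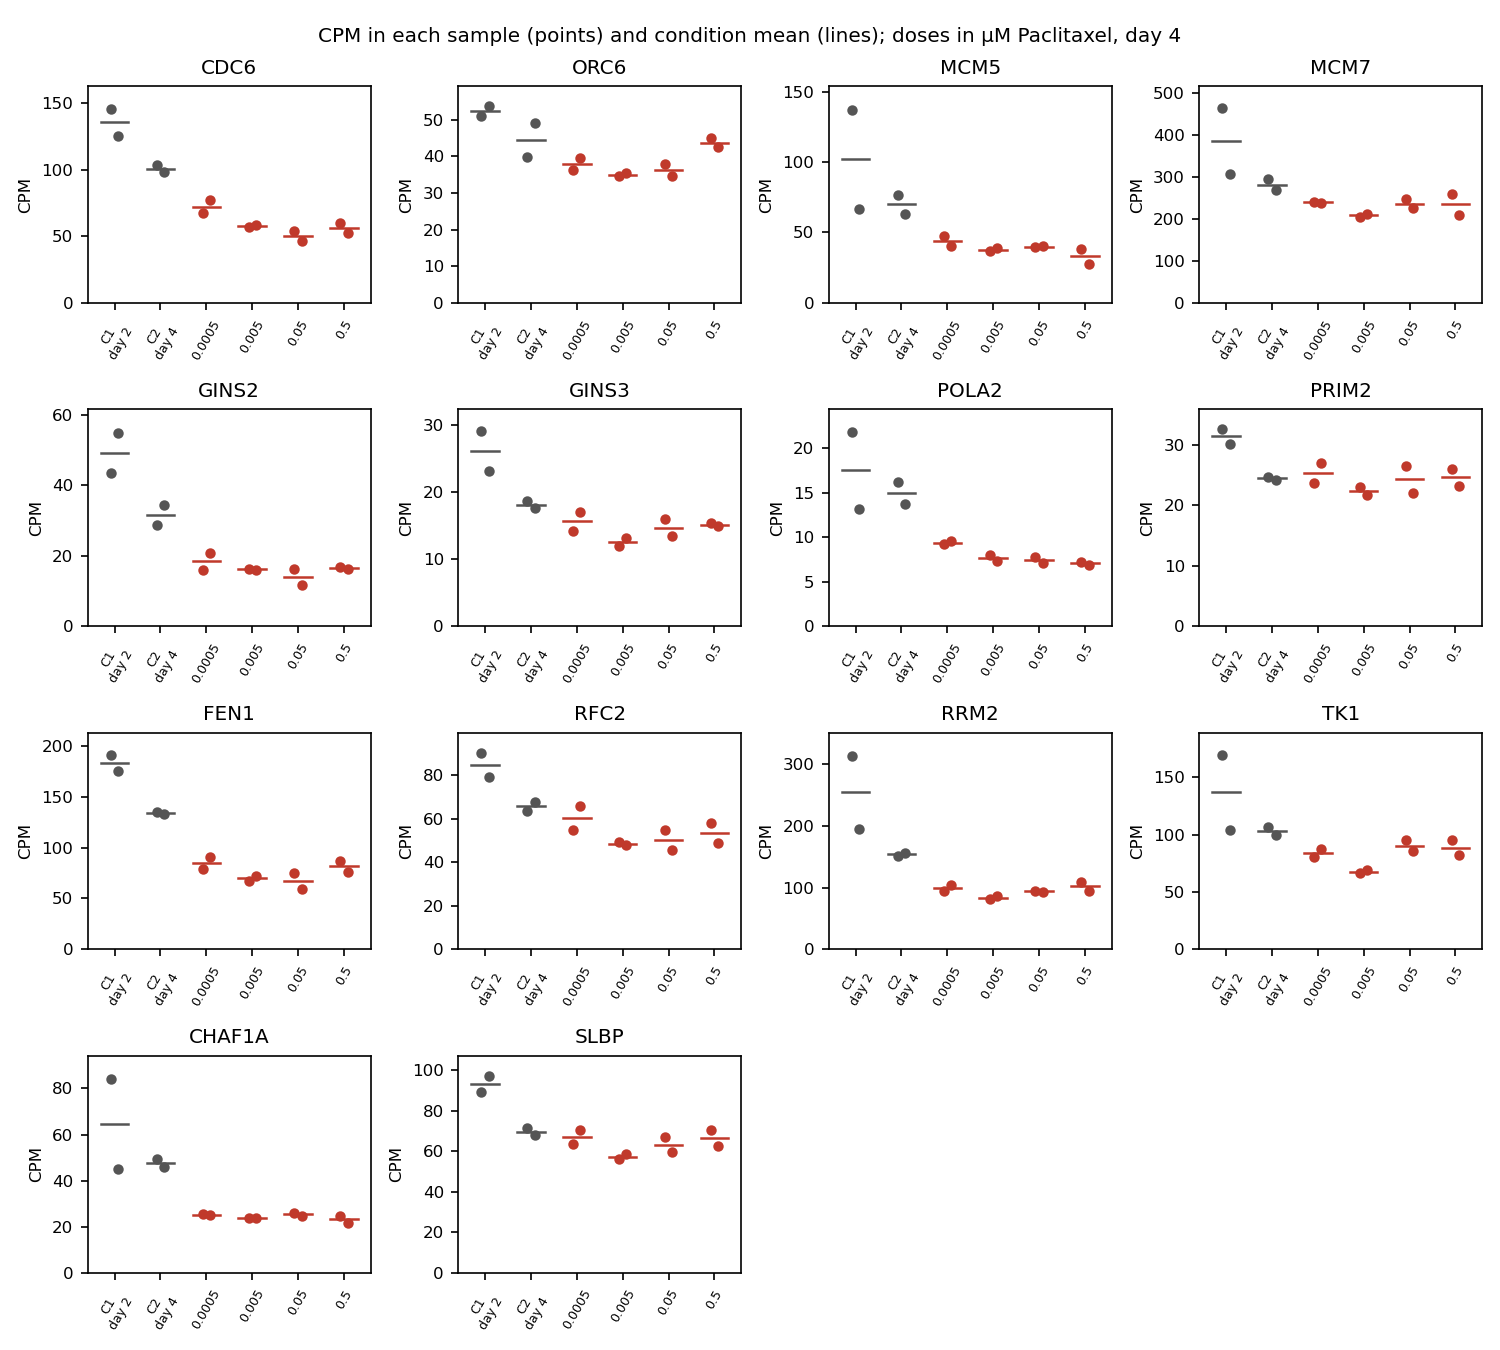
CPM (vertical axis, from 0) of 14 replication genes in the 6 conditions (horizontal axis), with each sample as a point and the condition mean as a line, untreated in grey and Paclitaxel in red. The 2 genes of each role are those with the largest and the smallest change over the 4 doses, and PRIM2, ORC6, RFC2 and SLBP show treated samples that overlap C2.

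The untreated cultures of day 4 were then set against those of day 2, to place the difference with drug beside the difference between the days. No member was called in C2 against C1 by edgeR's quasi-likelihood test (0.00396% of tested genes, 1 gene, were called lower and 0.321% higher), although 30 members passed an unadjusted p of 0.05 (4.7% of tested genes did so lower) and DESeq2 called 6 (0.329%). All 39 estimates were negative, from -0.73 (RRM2) to -0.23 (POLA2), with a median of -0.49, against -0.023 over all tested genes and -0.10 over those of at least 10 CPM. This sign depended on the C1 sample. Without C1 replicate 1 CDT1 (0.20), POLA2 (0.19), POLE (0.10), CHAF1A (0.079), MCM5 (0.074) and LIG1 (0.022) were above 0, and without C1 replicate 2 the highest estimate was -0.17. The highest of the 6 condition means was C1 for all 39 members, as it was for 29.3% of tested genes.

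Both C2 samples lay below both C1 samples in 29 of 39 members (15.3% of tested genes), and in the other 10 the samples overlapped. Those 10 were CDT1, MCM2, MCM3, MCM5, POLA2, POLE, POLD1, LIG1, TK1 and CHAF1A. In each of the 10, C1 replicate 2 lay inside or below the range of C2, as for MCM5 and CHAF1A above. Their transcripts had a median GC content of 55.7% (48.8% to 64.8%), against 45.3% (38.0% to 56.2%) in the 29, and the median log2 difference of C1 replicate 1 from replicate 2 was 0.77 against 0.020. Across the 39 members, which share these 2 libraries, GC content and that difference had a Pearson r of 0.744, given as a description. The part that GC content played in the day difference was not tested beyond the offsets for GC content and length, under which 3 members were called. Without C1 replicate 1 the median was -0.32 and 12 members were called lower (5.85% of tested genes), and without C1 replicate 2 it was -0.52 and 22 were (5.01%). In both cases the remaining C1 sample was assumed to vary like the other conditions.

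By role, the median log2 change from day 2 to day 4 was -0.54 for origin licensing, -0.50 for the MCM ring, -0.56 for helicase activation, -0.43 for polymerases and primase, -0.45 for the clamp group, -0.53 for nucleotide supply and -0.44 for chromatin assembly. These medians rest on both C1 samples. Without C1 replicate 1 they ran from -0.55 for the clamp group to -0.10 for the MCM ring, and without C1 replicate 2 from -0.75 for chromatin assembly to -0.42 for the clamp group, so the order of the roles depended on the C1 sample. RRM2 was at -0.73 (SE 0.19, adjusted p = 0.222), PRIM1 at -0.73 (SE 0.22, adjusted p = 0.307) and CDC45 at -0.63 (SE 0.14, adjusted p = 0.100). Without C1 replicate 1 RRM2 was at -0.35 (adjusted p = 0.119), PRIM1 at -1.05 (adjusted p = 0.00205) and CDC45 at -0.67 (adjusted p = 0.00742). Without C1 replicate 2 RRM2 was at -0.9965 (adjusted p = 0.00026), PRIM1 at -0.29 (adjusted p = 0.325) and CDC45 at -0.56 (adjusted p = 0.0171). SLBP and PRIM2, nearly level between drug and C2, were at -0.42 (adjusted p = 0.340) and -0.36 (adjusted p = 0.455) between the days, and for both the C2 samples lay below both C1 samples. SLBP was at -0.48 without C1 replicate 1 (adjusted p = 0.0341) and -0.33 without C1 replicate 2 (adjusted p = 0.168), and PRIM2 at -0.30 (adjusted p = 0.224) and -0.39 (adjusted p = 0.124).

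The size of the drug difference was compared with that of the day difference in 1 contrast, the mean of the 4 doses minus C2, less C2 minus C1. C2 is part of both, so an error in C2 moves them in opposite directions. No member was called by edgeR (0.194% of tested genes lower, 0.115% higher) or by DESeq2 (0.614% lower, 0.408% higher). In edgeR 1 passed an unadjusted p of 0.05 (4.89% of tested genes did so lower and 4.88% higher), and 22 estimates were lower and 17 higher, with a median of -0.05. The median half-width of the 95% intervals was 0.574 on the log2 scale, about as wide as the drug difference itself, and 38 of 39 intervals held 0. With 2 samples per condition and C1 replicates that lay far apart, a moderate inequality of the 2 differences was therefore not detectable. The result does not show that the 2 differences were equal.

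POLA2 was the exception to the intervals that held 0. It was at -0.94 with drug and -0.23 between the days, a difference of -0.71 (SE 0.33, 95% interval -1.42 to -0.0023, adjusted p = 0.509). Its day change was 0.19 without C1 replicate 1 and -0.51 without C1 replicate 2. CHAF1A (-0.97 and -0.44) had a difference of -0.53 (95% interval -1.30 to 0.24), and its day change was 0.079 without C1 replicate 1 and -0.79 without C1 replicate 2. On the other side PRIM2 (-0.02 and -0.36) had 0.34 (95% interval -0.17 to 0.85), and SLBP (-0.14 and -0.42) had 0.28 (95% interval -0.19 to 0.76). Group medians of this difference ran from -0.39 for chromatin assembly to 0.13 for origin licensing, from -0.77 to 0.041 without C1 replicate 1 and from -0.19 to 0.20 without C1 replicate 2. With single doses in place of their mean, 0 members were called at any dose, and the medians were 0.0065, -0.15, -0.054 and 0.053 from the lowest to the highest dose. Over tested genes these contrasts called 0.0317% lower and 0.0872% higher at 0.0005 μM, 0.0436% and 0.0634% at 0.005 μM, 0.218% and 0.158% at 0.05 μM, and 0.273% and 0.115% at 0.5 μM. Without C1 replicate 1 the contrast with the mean of the doses called 6 members lower (6.08% of tested genes lower, 3.89% higher), the median was -0.17, 28 of 39 intervals held 0, and POLA2 (-1.13, adjusted p = 0.00974) and CHAF1A (-1.05, adjusted p = 0.00613) were among the calls. Without C1 replicate 2 it called 0 (1.07% lower, 1.06% higher), the median was 0.044, 36 intervals held 0, POLA2 was at -0.42 (adjusted p = 0.373) and CHAF1A at -0.17 (adjusted p = 0.729). The contrasts of single doses were fitted with both C1 samples only.

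**Figure D4:**
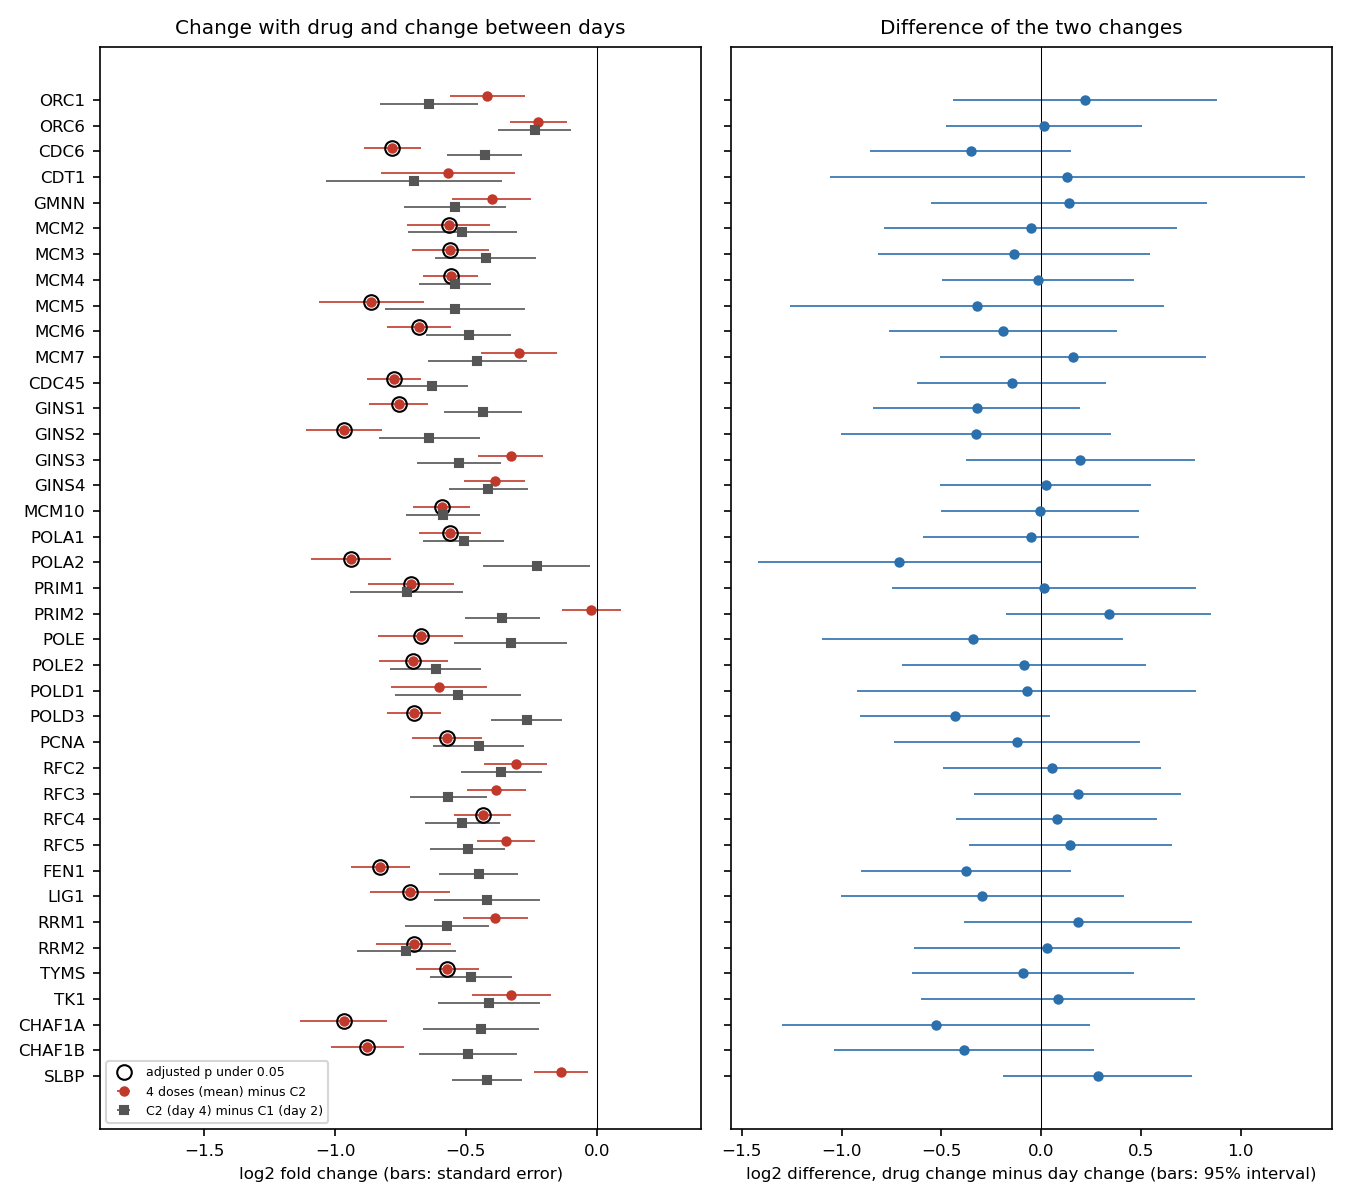
Left, log2 fold change of each replication gene for the mean of 4 doses minus C2 (red) and for C2 minus C1 (grey), with standard errors and a ring at an adjusted p under 0.05. Right, the difference between these 2 changes with its 95% interval, which holds 0 for 38 of 39 genes.

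Choosing the untreated samples changed the drug comparison in size but not in sign of the median. With the mean of C1 and C2 as the control, 38 members were called lower (12.1% of tested genes, with 14% higher) and the median was -0.83. With C1 alone as the control all 39 were called lower (10.1% of tested genes, with 10.4% higher), with a median of -1.07. With C1 alone the value holds the whole difference between the days beside that with drug, and with the mean of C1 and C2 a part of it. Both were fitted with both C1 samples only.

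Other genes of replication, 52 that matched a list of origin, fork, repair-coupled and nucleotide genes outside the 39, were set beside them. With the 4 doses averaged 18 of 52 fell and 0 rose, where 4.06% of tested genes were called lower, 40 estimates were lower and 12 higher, and the median was -0.30. At 0.0005 μM 6 of the 52 fell (0.479% of tested genes called lower), and the difference between the 2 lists was not tested. The 6 named next had the largest falls among the 18. HELLS, a chromatin remodeller, fell by 0.94 (SE 0.11, adjusted p = 0.000388), and CLSPN, the checkpoint adaptor claspin, by 0.84 (SE 0.11, adjusted p = 0.000778). Fork factors TIMELESS (-0.72, adjusted p = 0.0168), DNA2 (-0.69, adjusted p = 0.00378) and ATAD5 (-0.64, adjusted p = 0.00277) fell as well, as did the histone chaperone ASF1B (-0.74, adjusted p = 0.0341). Between the days 0 of the 52 were called by edgeR, 28 passed an unadjusted p of 0.05 (4.7% of tested genes did so lower), 50 were lower in C2, and the median was -0.37. Without C1 replicate 1 it was 21 called (5.85% of tested genes), 44 lower and a median of -0.35, and without C1 replicate 2 it was 11 called (5.01%), 47 lower and a median of -0.35. The slope on dose called 2 of the 52 (2.04% of tested genes were called lower and 1.03% higher), both lower at higher dose and named after their values were seen, TYMP (-0.27 log2 per 10-fold dose, adjusted p = 0.0458) and SAMHD1 (-0.25, adjusted p = 0.00268).

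Set against the promoter letters, the 17 members with an E2F-type match had a median of -0.57 with drug (from -0.97 to -0.30), and 13 were called lower. The 18 without a match had a median of -0.43 (from -0.97 to -0.02), and 8 were called, where 4.06% of all tested genes were called lower. The difference between these 2 groups was not tested. Between the days the medians were -0.48 with a match and -0.50 without, -0.32 and -0.37 when C1 replicate 1 was left out, and -0.59 and -0.48 when C1 replicate 2 was, so their order depended on the C1 sample. GINS2 and POLA2, with matches that begin at -31 and -53 from the start, were chosen for print by their change with drug. Their place among the largest differences was therefore set by that choice. CDT1, with a match at -35, did not pass the test, and CHAF1A passed with no match in its window.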

How the data were processed

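RNA-seq counts of 12 samples were used. According to the study's methods and the submitters' processing notes, the authors trimmed reads with Trimmomatic 0.39, checked them with FastQC 0.11.9, aligned them to GRCh37 with STAR 2.7.5, kept uniquely aligned reads and deposited whole-number counts per gene over exons, neither normalized nor pooled. Strand setting and annotation release are not given in the sources used here, so overlapping opposite-strand genes are uncertain. The 12 single-sample files were identical to the series table.

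Counts were analysed in R 4.3.3 with edgeR 4.0.16 and limma 3.58.1. They were scaled by TMM, filtered by filterByExpr and fitted by glmQLFit with robust estimation to 6 conditions of 2 samples. Tests were two-sided with Benjamini-Hochberg adjustment over 25242 genes, and an adjusted p under 0.05 was called. Log2 CPM used a prior count of 2. Standard errors were the size of the log2 change over the root of F. The slope on log10 dose was fitted to the 8 treated samples. Exon length and GC content came from GENCODE 44 lifted to GRCh37, available for 88.2% of tested genes. The procedure was tested on simulated counts with the same spread for every gene and sample. That test leaves out the wider spread of the C1 pair. Apart from the slope, the main p-values rest on a spread between replicates pooled over all 6 conditions (6 residual degrees of freedom) and shared in part across genes. The C1 pair therefore also enters the tests of drug against C2. Exact permutation of 2 against 2 samples cannot go below 0.333.

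The members and lists were chosen with earlier results of these data known. In each of 7 role groups the members with the largest and the smallest change over the 4 doses are given per sample, together with up to 6 other replication genes with the largest called change, MKI67 and CCNB1. UHRF1 and PECAM1 were not analysed here. Alternatives were DESeq2 1.42.0, RLE scaling, 3 filters, a fit that was not robust, a block for the replicate number, offsets for GC content and length, the 4 samples of a comparison alone, other controls, single doses and leaving out each sample. Leaving out both C1 samples was added after the data were seen.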

Additional observations from a re-analysis of the deposited data

How the results depend on the processing

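The sign of the median change of the 39 genes was negative in every setting for each dose, for the mean of the 4 doses and for day 4 against day 2. Counts of called genes moved more, and so did the share of all tested genes called lower, given in parentheses. At 0.0005 μM (2 in the report, 0.479%) the count was 13 with DESeq2 (1.6%), 12 with a minimum of 1 count in total (1.11%), 5 with a mean of 1 CPM (0.684%), 4 with no robust estimation (0.527%), 21 with offsets for GC content and length (1.53%), 26 with the 4 samples alone (5.12%) and 24 without both C1 samples (4.58%). At 0.005 μM (16, 0.769%) it was 27 with 1 count in total (0.928%), 9 with a mean of 1 CPM (0.596%), 31 with the offsets (1.87%), 36 with the 4 samples alone (5.6%) and 36 without both C1 samples (6.15%). At 0.05 μM (19, 3.22%) it was 30 with the offsets (5.12%) and 30 without both C1 samples (9.16%). At 0.5 μM (11, 1.92%) it was 19 with 1 count in total (2.16%), 22 with the offsets (4.18%), 24 with the 4 samples alone (5.73%) and 26 without both C1 samples (10.8%). For the mean of the 4 doses (24, 4.06%) it was 38 with the mean of C1 and C2 as the control (12.1%), with a median of -0.83, and 39 with C1 as the control (10.1%), with a median of -1.07. For day 4 against day 2 (0, 0.00396%) it was 6 with DESeq2 (0.329%), 3 with 1 count in total (0.313%) and 3 with the offsets (0.0832%). The causes were not tested. For the drug change minus the day change 0 members were called in every setting that kept all 12 samples (0.0317% to 0.614% of tested genes called lower). The same held for the slope (1.2% to 4.38%) and for 0.5 against 0.0005 μM (0.337% to 1.54%).

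Leaving out 1 sample at a time gave 0 to 24 called at 0.0005 μM (0.0148% to 4.4% of tested genes), 0 to 36 at 0.005 μM (0.0185% to 6.49%), 3 to 31 at 0.05 μM (0.208% to 9.24%), 0 to 26 at 0.5 μM (0.0748% to 10.1%) and 5 to 36 for the mean of the 4 doses (0.159% to 11.7%). Day 4 against day 2 ranged from 0 to 22 (0% to 5.85%) with a median of -0.52 to -0.32, and the drug change minus the day change from 0 to 6 (0% to 6.08%) with a median of -0.17 to 0.044. Counts with drug were highest without a C1 sample. Among the 14 genes given per sample none that was called changed sign. PRIM2 was at 0.050 with a mean of 1 CPM, 0.011 without replicate 1 of 0.0005 μM and 0.0092 without replicate 2 of 0.05 μM.

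With the replicate number as a block, 6 members were called at 0.0005 μM (0.63% of tested genes), and the other counts moved by less than 1.5 times. The deviations of equally numbered samples correlated between conditions from -0.59 to 0.71, and what these samples share beyond the number was not tested. Each member had at least 375 counts in every sample, and 2 samples per condition limited the differences that could be detected.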

Other observations

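Proliferation genes outside the replication machinery were looked at as context. In a list of 10 of them, 2 fell with the 4 doses averaged and 0 rose by edgeR's quasi-likelihood test (4.06% of tested genes were called lower), with a median of -0.23. The 2 were E2F1, an activator of S-phase genes, at -0.85 (adjusted p = 0.00987) and CDK1, the mitotic kinase, at -0.63 (adjusted p = 0.0294), both named after their values were seen. From day 2 to day 4 all 10 were lower with a median of -0.61, 0 were called, and 8 passed an unadjusted p of 0.05 (4.7% of tested genes did so lower). Without C1 replicate 1 it was 8 lower, 6 called (5.85% of tested genes) and a median of -0.58, and without C1 replicate 2 it was 10 lower, 4 called (5.01%) and a median of -0.51. The slope on dose called 3 of the 10 higher (1.03% of tested genes were called higher and 2.04% lower).

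CCNB1, the mitotic cyclin B1, was at 209.6 and 275 CPM in the C1 samples, 146 and 161 in the C2 samples, 150.5 and 191 at 0.0005 μM, 156 and 172 at 0.005 μM, 247 and 178 at 0.05 μM and 290.3 and 261 at 0.5 μM. Levels at 0.5 μM were above both C2 samples and those at 0.0005 μM lay near or just above them. CCNB1 rose by 0.84 at 0.5 μM (SE 0.20, edgeR adjusted p = 0.0276) with a slope of 0.24 log2 per 10-fold dose (adjusted p = 0.0312). CCNA2 (0.17, adjusted p = 0.0402) and AURKA (0.21, adjusted p = 0.0473) were the other 2 called with a positive slope, named after their values were seen.

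MKI67, the Ki-67 proliferation antigen, was at 420.3 and 206 CPM in the C1 samples, 206 and 195 in the C2 samples, 128 and 161 at 0.0005 μM, 133 and 128 at 0.005 μM, 175 and 176 at 0.05 μM and 178 and 181 at 0.5 μM. C1 replicate 2 and C2 replicate 1 were level, C1 replicate 1 was far above both, and all treated samples were below C2. Its log2 fold change was -0.36 with drug (SE 0.19, adjusted p = 0.273) and -0.65 between the days (SE 0.25, adjusted p = 0.441). The day change was -0.04 without C1 replicate 1 (adjusted p = 0.914) and -1.04 without C1 replicate 2 (adjusted p = 0.000349), so it rested on C1 replicate 1.

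Of other promoter letters, CCAAT occurred on either strand in 51.4% of the 35 member windows and 35.7% of all windows, and the GC box GGGCGG in 71.4% and 44.6%. The CHR letters TTTGAA or TTCGAA, known from genes of late cell cycle phases, occurred in 5.71% of member windows and 16.6% of all windows.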
